A study of Mus musculus with 4 samples.

Results

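The clustered protocadherin genes are 58 genes in 3 neighbouring arrays on mouse chromosome 18, all on the plus strand. They comprise 14 Pcdha genes, 22 Pcdhb genes and 22 Pcdhg genes, taken by name from the GENCODE annotation of the mm10 genome, which holds 21938 protein-coding genes in all. The Pcdha genes extend from 36930184 to 37187661, the Pcdhb genes from 37264938 to 37524479 and the Pcdhg genes from 37661793 to 37841873. A gene was counted as having a peak when the summit of the peak lay within 2 kb of its annotated start or of the start of its variable exon, the large first coding exon. No measured value entered the choice of the genes, though earlier results of these data were known when they were chosen. Peaks of CTCF and of the cohesin subunit RAD21 were examined in whole limbs of E12.5 embryos that were TgN(38-40)/Wt; del(CS38-40)-/-, with 2 biological replicates for each antibody. These embryos carried a randomly integrated transgene on 1 copy of chromosome 10, made of 1 full copy of the construct and part of another. They lacked the endogenous region CS38-40 of the HoxD locus on both copies of chromosome 2. Neither change lies on the chromosome of the protocadherin genes. All of the transgenic material came from 1 insertion. RAD21 peaks of wild-type E12.5 whole limbs came from a single library of an earlier study, and no wild-type CTCF peaks were analysed here.

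Clustered protocadherins are cell surface proteins known for giving individual neurons distinct identities. Each variable exon has its own promoter, and in the Pcdha and Pcdhg arrays the chosen variable exon is spliced to a small set of constant exons shared by the whole array, while each Pcdhb gene consists of a single coding exon. CTCF binds DNA in a sequence-dependent, oriented way and halts cohesin, the ring complex that extrudes chromatin loops. In neural cells, CTCF at protocadherin promoters is known to join them to distant enhancers, among them HS5-1 between the Pcdha and Pcdhb arrays and a group of elements beyond the Pcdhg array. Limbs contain few neuronal cell bodies, and neither the expression of these genes nor that of tissue markers was measured here.

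The CTCF lists held 23829 peaks in replicate 1 and 26264 in replicate 2. The RAD21 lists were less alike, with 4102 peaks in replicate 1 and 14787 in replicate 2, and the wild-type RAD21 list held 20874. Each peak has a fold enrichment, the pileup at its summit over the local expectation, and the −log10 of a q-value, both set by the peak caller. The number of reads behind each list is unknown, so folds were compared only within a list, as percentiles, where a percentile is the share of peaks of that list with the same or a lower fold. A gene without a peak lies below the threshold of that list, which does not show that it was unbound.

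In the 5 lists together 13 of the 58 genes had a peak of any kind (22.4%), and the remaining 45 had none. The same rule gave 21.9% of all protein-coding genes, so the share was near that of genes in general. The gene start and the exon start nearly coincide in the members. In other genes they can lie far apart, and the rule then searches more sequence. No share of protein-coding genes given here by this rule was adjusted for that. CTCF was called at 11 of the 58 genes in at least 1 replicate, where the same rule gave 17.5% of all protein-coding genes. In replicate 1 there were 5 genes, Pcdhac1, Pcdhb10, Pcdhgb6, Pcdhgb7 and Pcdhgb8, or 8.62% against a background of 14.8%. In replicate 2 there were 9, Pcdha2, Pcdha4, Pcdha11, Pcdha12, Pcdhac1, Pcdhga1, Pcdhgb6, Pcdhgb7 and Pcdhga12, or 15.5% against 15.9%. The share was thus near the background in replicate 2 and below it in replicate 1. Only Pcdhac1, Pcdhgb6 and Pcdhgb7 had a CTCF peak in both replicates, which is 5.17% of the members beside 13.2% of protein-coding genes. Put another way, 27.3% of the members called in either replicate were called in both, whereas this share was 75.2% over all protein-coding genes. For RAD21, described further on, the corresponding shares were 16.7% and 19.1%.

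**Figure D1:**
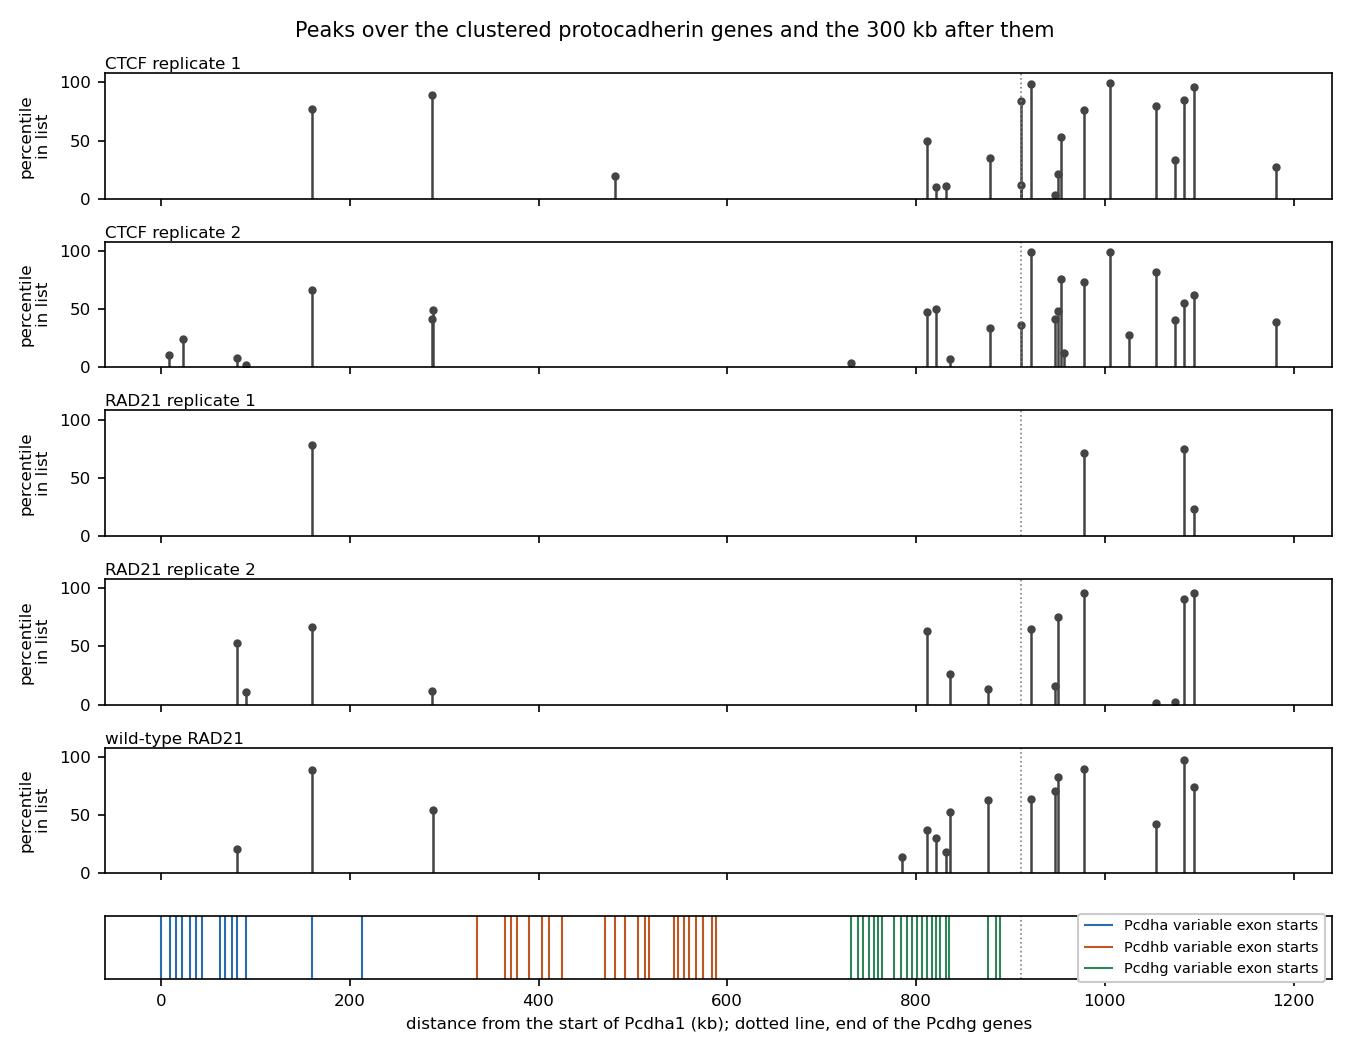
Peaks of the 5 lists over the clustered protocadherin genes and the 300 kb after them, by distance from the start of Pcdha1 in kb; each stem is a peak and its height the percentile of its fold enrichment within its list, and coloured ticks in the lowest panel are the starts of the variable exons. Over the Pcdhb exons there is a single low peak, in CTCF replicate 1, and peaks above the 90th percentile lie only after the dotted line that marks the end of the Pcdhg genes.

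Along the Pcdha array, CTCF was called at 5 of 14 genes, all of them in replicate 2 and 1 of them, Pcdhac1, also in replicate 1. That is 35.7% beside 15.9% of protein-coding genes in replicate 2 and 7.14% beside 14.8% in replicate 1. Pcdhac1 encodes one of the C-type protocadherins, which are known to be used more uniformly between neurons than the other isoforms. It carried the strongest CTCF peaks of all members, with folds of 8.10 and 8.97 in replicates 1 and 2, at percentiles 77.5 and 66.2. The summits lay 35 bp and 1 bp after the start of its variable exon. Pcdha2 had a peak of fold 5.01 in replicate 2, 82 bp before its exon, at percentile 10.8. Pcdha11 had one of fold 4.96 at 139 bp before the exon, at percentile 8.21. The weakest, at Pcdha12, had a fold of 4.35 and lay 161 bp before the exon, at percentile 2.30. Pcdha4 differed in position, with a peak of fold 5.91 inside the coding part of its variable exon, 734 bp from the exon start, at percentile 24.1. No list held a peak at Pcdhac2, the last variable exon of the array and the other C-type gene there. The peaks at Pcdha11 and Pcdha12 also overlap an exon of Gm10545, an antisense gene, and the start of Gm42416, a read-through gene model, lies 641 bp from the summit in Pcdha4, so position alone does not assign these peaks to a protocadherin promoter.

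The Pcdhb array was almost empty. Among its 22 genes CTCF was called at 1 (4.55%, beside 17.5% of protein-coding genes), Pcdhb10, in replicate 1 alone. The summit lay 10 bp into the exon, in the annotated 5′ UTR. That peak had a fold of 5.09 at percentile 19.1. It was not in the list of replicate 2 and, on the custom genome described further on, in neither replicate. No Pcdhb gene had a RAD21 peak in any list, transgenic or wild-type. Over the whole Pcdhb array, 260 kb long, this made 1 CTCF peak and 0 RAD21 peaks, where windows of that length on the autosomes had a median of 2 CTCF peaks and 1 RAD21 peak. Such low counts are common, since 43.4% of the windows had 1 CTCF peak or fewer and 36.5% had no RAD21 peak.

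In the Pcdhg array 5 of 22 genes had a CTCF peak (22.7%, beside 17.5% of protein-coding genes). It was 13.6% beside 14.8% in replicate 1 and 18.2% beside 15.9% in replicate 2, so near that share. Of the 5 genes, 4 lie near the end of the array, before the C-type exons. At Pcdhgb6 replicate 1 gave a fold of 6.48 and replicate 2 one of 7.51, at percentiles 49.5 and 47.8, with summits 159 bp and 76 bp before the exon. At Pcdhgb7 the replicates differed more, with folds of 4.67 and 7.62 at percentiles 10.3 and 49.8, and their summits lay 43 bp and 62 bp before the exon. Pcdhgb8, annotated as a polymorphic pseudogene, had a peak in replicate 1 only, of fold 4.73, 274 bp before its exon. Pcdhga12 had one in replicate 2 only, of fold 4.84, 384 bp into the exon. At the other end of the array, the first gene, Pcdhga1, had a CTCF peak in replicate 2 of fold 4.38 at percentile 3.26, 22 bp before the exon. None of the C-type genes Pcdhgc3, Pcdhgc4 and Pcdhgc5 was called for CTCF. The nearest miss was a CTCF peak of both replicates at the far end of the Pcdhgc3 variable exon, 2414 bp from the exon start in replicate 1 and 2528 bp in replicate 2, in coding sequence and at percentiles 35.3 and 33.6. The most distant summit inside the limit was that of Pcdha4.

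RAD21 was called at fewer members than CTCF. In the transgenic limbs 6 genes had it in either replicate (10.3%, beside 7.64% of protein-coding genes), and 5 of the 6 also had CTCF, namely Pcdha11, Pcdha12, Pcdhac1, Pcdhgb6 and Pcdhga12. Those 5 are 8.62% of the members, and 6.47% of protein-coding genes had both proteins. All 6 were in replicate 2 (10.3% against 7.43%), and replicate 1 held Pcdhac1 alone (1.72% against 1.66%), which was thus the only member called in both replicates, as were 1.46% of protein-coding genes. At Pcdhac1 the RAD21 peaks of the replicates had folds of 7.22 and 8.48, at percentiles 78.5 and 66.6. The next highest in replicate 2 were Pcdhgb6 with a fold of 8.19 and Pcdha11 with 7.48, and Pcdha12 was lowest with 4.99 at percentile 10.8. Of the 11 genes with CTCF, 45.5% had RAD21, and this share was 37.0% over protein-coding genes. Of the 6 members with RAD21, 83.3% had CTCF, near the 84.7% of protein-coding genes with RAD21. Pcdhgc3 was the member with RAD21 and no CTCF peak within the limit. Its RAD21 summit in replicate 2 lay 128 bp after the exon start with a fold of 5.20, and the peak also covers an exon of the antisense gene BC037039.

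In the wild-type limbs RAD21 was called at 8 members (13.8%, beside 13.1% of protein-coding genes). Of these, 5 were also called in the transgenic limbs, Pcdha11, Pcdhac1, Pcdhgb6, Pcdhga12 and Pcdhgc3. The same overlap over all protein-coding genes was not counted, so this number has no background beside it. Pcdhac1 again ranked highest, with a fold of 8.33 at percentile 88.8, followed by Pcdhgc3 with 5.58 at percentile 63.1 and Pcdhga12 with 4.76 at percentile 52.9. The wild-type list added Pcdhgb7 and Pcdhgb8, which had CTCF but no RAD21 peak in the transgenic limbs, and Pcdhga7, which had no other peak, a fold of 2.80 and an antisense exon, of Gm37165, under the peak. Pcdha12 was called in the transgenic limbs only, and there on mm10 but not on the custom genome described further on. With 1 wild-type library, made by a different protocol and with unknown depth, differences between the genotypes could not be tested and cannot be told apart from differences between the libraries.

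Within their lists, the members' CTCF peaks were weak. The 5 peaks of replicate 1 had a median percentile of 19.1 and the 9 of replicate 2 a median of 10.8, while CTCF peaks near protein-coding starts in general had medians of 54.8 and 56.0. For RAD21 the members did not stand lower. In replicate 2 their 6 peaks had a median percentile of 39.7 beside 35.7 for peaks near protein-coding starts, and in the wild-type list the 8 peaks had a median of 33.6 beside 31.4.

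The CTCF motif was then searched at every variable exon, whether or not it had a peak. A model of 19 bp learned from strong CTCF peaks on other chromosomes of replicate 2 has the consensus NNNCCACNAGGGGGCGCNN, where N is a position at which no base reaches a frequency of 50%, and it is shown because its direction gives the orientation of a site. A score of 6.06 bits is reached within 50 bp of a position by 5% of sequences beside CTCF peaks, and 10.7 bits by 1%. From 250 bp before to 50 bp after the exon start, 35 of the 58 genes had a match on their own strand at the lower score, or 60.3%, where the share over all protein-coding genes was 12.3%. In other genes the exon with the start codon need not be the first exon, so the window need not lie at a promoter there. This window was chosen after the values were seen. At the stricter score the counts were 20 genes, or 34.5%, against 3.14%. On the opposite strand no member had a match at either score, and 10.6% of protein-coding genes had one at the lower score.

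The motifs were not spread evenly among the arrays. At the lower score they were present in 12 of 14 Pcdha genes, 19 of 22 Pcdhb genes and 4 of 22 Pcdhg genes, and at the stricter one in 7, 13 and 0. The median best score was 10.5 bits in the Pcdha, 10.8 in the Pcdhb and 1.10 in the Pcdhg genes, beside 0.212 over all protein-coding genes. Their centres lay 61 to 220 bp before the exon start in the Pcdha array and from 201 bp before to 16 bp after it in the Pcdhb array. The genes without a match at the lower score were Pcdha10 and Pcdhac2 in the first array and Pcdhb1, Pcdhb17 and Pcdhb22 in the second. Pcdhb17 had one of 11.98 bits further in, 123 bp after its exon start. In the Pcdhg array Pcdhga3, with 9.55 bits, had the highest score, followed by Pcdhga7, Pcdhgb1 and Pcdhga11, and none of the 4 had a CTCF peak on mm10.

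**Figure D2:**
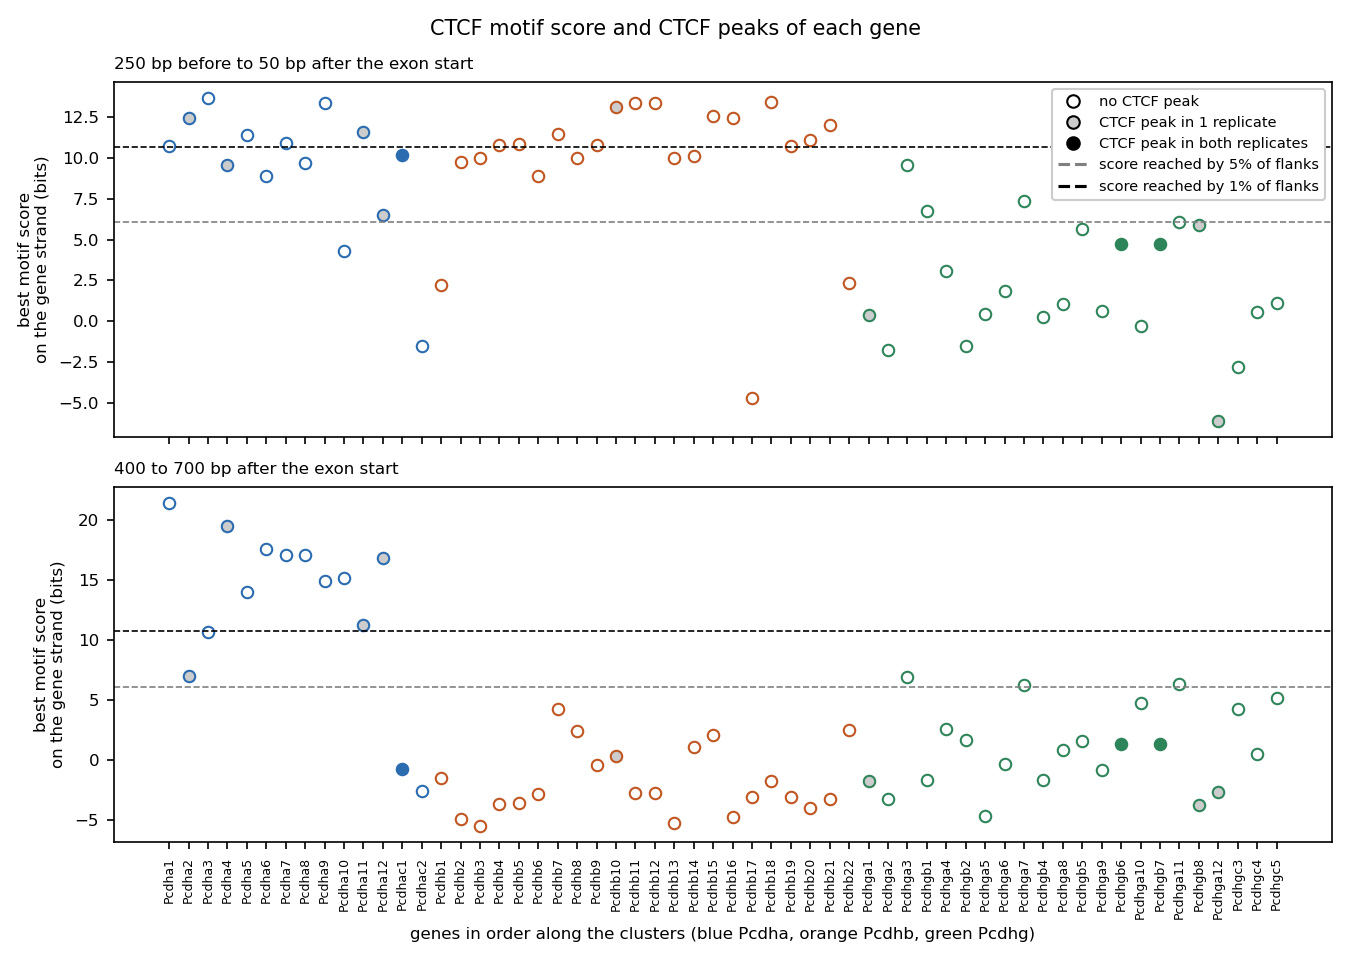
Best CTCF motif score in bits on the gene strand for each gene in order along the clusters, before the exon start above and inside the exon below; open circles have no CTCF peak, grey ones a peak in 1 replicate and filled ones in both, and dashed lines are the scores that 5% and 1% of flanking sequences reach. Most Pcdhb genes sit as high as the Pcdha genes in the upper panel with 1 grey circle among them, and only Pcdha genes lie above the stricter line in the lower panel.

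Presence of the motif and presence of a peak did not go together across the arrays. Of the 19 Pcdhb genes with a motif at the lower score, 1 had a CTCF peak (5.26%), compared with 5 of 12 Pcdha genes (41.7%), 0 of 4 Pcdhg genes and 871 of 2708 protein-coding genes (32.2%). A peak here is any summit within 2 kb, which need not lie at the motif. At Pcdha2, Pcdha11 and Pcdhb10 a motif lay within 50 bp of the summit, and at Pcdhac1 within 100 bp. Pcdha12 had none that passed the score limit within either distance, and the summit of Pcdha4 lay 734 bp into its exon. At the stricter score it was 1 of 13 Pcdhb genes (7.69%) and 2 of 7 Pcdha genes (28.6%), compared with 408 of 688 protein-coding genes (59.3%). The contrast between the Pcdha and Pcdhb arrays rested on replicate 2, in which 5 of 12 Pcdha and 0 of 19 Pcdhb genes with a motif at the lower score had a peak. In replicate 1 it was 1 of each, Pcdhac1 and Pcdhb10, where 27.8% of the protein-coding genes with a motif had a peak. Matches with scores in the range of those 13 Pcdhb genes were found at 340 protein-coding genes, and 140 of these had a CTCF peak (41.2%). The model was learned from peaks of the same data, so the shares at other genes are not independent of it. In those genes the window also need not lie at a promoter. Conversely, all 5 Pcdhg genes with a CTCF peak lacked a motif at the lower score in this window, Pcdhgb6 and Pcdhgb7 both having 4.75 bits. Outside the window, Pcdhga12 had a match of 14.25 bits on its own strand, 241 bp after its exon start. Pcdhga2 and Pcdhgc5, with no CTCF peak, had own-strand matches of 11.58 and 11.49 bits within 2 kb of the exon start. Over all members, the median score was 6.50 bits for the 11 genes with a CTCF peak and 9.55 for the 47 without. These medians pool arrays of unlike scores and do not compare genes within an array. Of the 11 genes, 5 are Pcdhg genes, an array with a median of 1.10 bits, and 1 is a Pcdhb gene, an array with a median of 10.8. Pcdhb11, Pcdhb12 and Pcdhb18, with 13.4 bits each, Pcdha9, also with 13.4, and Pcdha3, with 13.7, were among the highest scores and had no CTCF peak.

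**Figure D3:**
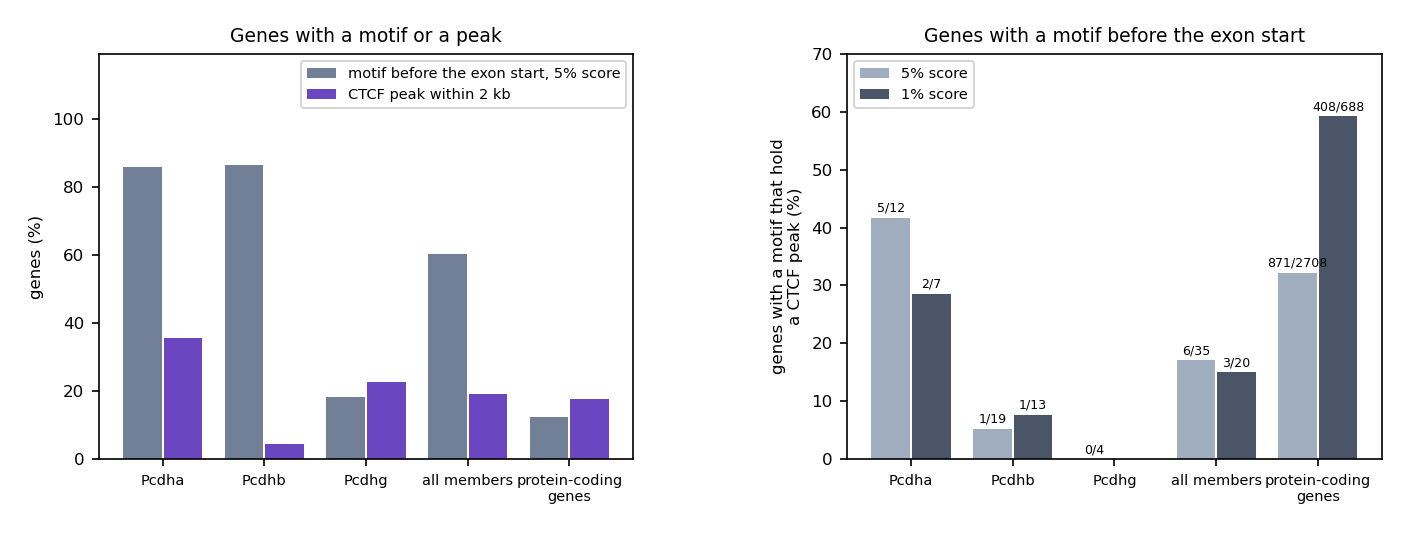
Left, percentage of genes with a CTCF motif before the exon start and with a CTCF peak in either replicate, for each array, all members and all protein-coding genes; right, percentage of the genes with such a motif that had a CTCF peak, at the score of 5% and of 1% of flanking sequences, with the numbers of genes on the bars. The Pcdhb array has the tallest motif bar, 86.4%, and the lowest peak bar, 4.55%.

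Paralogous exons can share reads, and reads of 50 bases were used, so the share of 50-base words that occur only in 1 place in the genome was counted around each exon start. In the motif window before the exon, all 50-base words were unique for all 14 Pcdha genes, all 22 Pcdhb genes and 20 of the 22 Pcdhg genes, the exceptions being Pcdhgb6 and Pcdhgb7 with 94.0% each, both of which had CTCF peaks. In a window of 500 bp on each side the shares ran from 75.0% to 100% in the Pcdha array and from 89.9% to 100% in the Pcdhb array. The part of read placement in the peak counts was not tested. The Pcdhb promoters were poor in CpG, with a median ratio of observed to expected CpG of 0.378, against 0.686 for Pcdha and 0.612 for Pcdhg. The part of CpG content or of DNA methylation in these peak counts was not tested.

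The Pcdha array had a second motif, inside the variable exon. From 400 to 700 bp after the exon start, all 12 genes from Pcdha1 to Pcdha12 had a match on their own strand at the lower score, and 10 had one at the stricter score, where the share over protein-coding genes was 1.65%. The share at the lower score was 9.43%. Both shares take the same window in every gene, whatever the length of its exon, so in other genes it can run past the exon. This window too was chosen after the values were seen. At the lower score 3 of the 22 Pcdhg genes had a match on their own strand (13.6%), and no Pcdhb gene and neither Pcdhac1 nor Pcdhac2 did. The highest was 21.4 bits at Pcdha1, which had no peak in any list, and Pcdha4 followed with 19.5 bits, centred 580 bp after its exon start and so 154 bp from its CTCF summit. On the opposite strand of this window, Pcdha2, Pcdha4, Pcdha6, Pcdha7, Pcdha10, Pcdha11, Pcdhac1, Pcdhb1 and Pcdhgb8 had a match at the lower score. Pcdhgb8, with 11.54 bits, also passed the stricter one. The share of protein-coding genes with such a match was not counted. Here the sequence was less often unique, with 40.6% to 100% of 50-base words occurring in 1 place. The lowest shares were those of Pcdha7, with 40.6%, and Pcdha8, with 60.2%.

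The set of members with a peak changed with the mapping. The libraries were also mapped to a custom genome holding the transgene, in which the chromosome of the protocadherins has its usual sequence, and for which reads with several matches were kept and placed at random. On that genome 13 members (22.4%) had a CTCF peak in either replicate, beside 17.9% of protein-coding genes on chromosomes other than 2 and 10, whose coordinates it changes. Pcdha7, Pcdha8 and Pcdhga11 were gained and Pcdhb10 was lost. The CTCF lists were longer on that genome, with 24837 and 27678 peaks in replicates 1 and 2. How many protein-coding genes were gained or lost between the genomes was not counted, so these changes cannot be set against genes in general. At Pcdha7 the gained peak of replicate 1 had its summit 583 bp after the exon start, where the exonic motif is centred at 584 bp, with a fold of 4.78, and a weaker peak lay at 843 bp. At Pcdha8 the gained peak of replicate 2 was 552 bp after the exon start, 6 bp from the motif centre, with a fold of 5.29. Pcdhga11 gained a peak of replicate 1 at 94 bp before its exon, with a fold of 5.26, although all of its promoter words were unique. Each gained peak appeared in 1 replicate, and the part of read placement in them was not tested. The genes with CTCF in both replicates, Pcdhac1, Pcdhgb6 and Pcdhgb7, were the same 3 on both genomes, and the Pcdhb array had no CTCF peak on the custom genome. RAD21 was called there at 5 members (8.62%, against 7.07% of those protein-coding genes), without Pcdha12, which therefore no longer had both proteins.

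**Figure D4:**
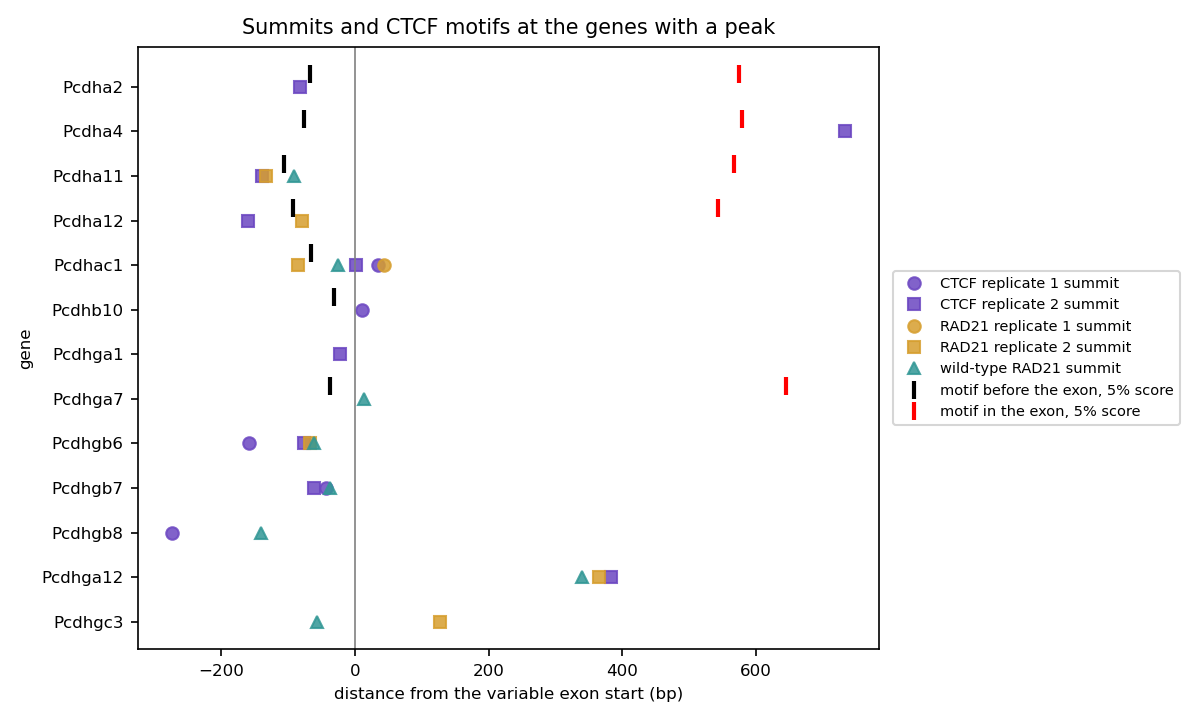
Distance in bp of each summit from the start of the variable exon for the 13 genes with a peak in the 5 lists; symbols are summits of each list and vertical marks are CTCF motifs at the score that 5% of flanking sequences reach, before the exon in black and inside it in red. Most summits lie within 200 bp of the exon start, and those of Pcdha4 and Pcdhga12 lie furthest inside the exon.

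Where a summit had a motif, the motif pointed along the gene. Within 50 bp of the CTCF summits of the 11 genes, 3 motifs passed the lower score, at Pcdha2, Pcdha11 and Pcdhb10, all on the plus strand, and 8 summits had none. At protein-coding genes in general, 57.4% of the motifs at CTCF summits were on the strand of the gene. When the search was widened to 100 bp, with its own score limit, Pcdhac1 joined them with 10.2 bits, also on the plus strand. Its motif is centred 66 bp before the exon start.

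Between the arrays stood a pair of CTCF sites with no protocadherin exon within the limit. They lie 29.6 kb after the end of the Pcdha genes and 46.4 kb before Pcdhb1, inside introns of the read-through models Gm42416, Gm37013 and Gm37388, with 0.628 kb between them. The first, from 37217213 to 37217614 on chromosome 18 of mm10, had CTCF folds of 9.22 and 7.00 in the replicates, at percentiles 89.4 and 41.2, a RAD21 peak of fold 5.07 in replicate 2, and a motif of 16.9 bits on the minus strand. The second, from 37218242 to 37218583, had a CTCF peak in replicate 2 of fold 7.56, a wild-type RAD21 peak of fold 4.90 and no motif at its summit. The HS5-1 enhancer is known to lie between these arrays. Its position is not in the annotation used, so neither site was assigned to it. After this pair, replicate 2 had no CTCF peak for 443 kb, up to Pcdhga1, across all 22 Pcdhb genes. Of the gaps between neighbouring CTCF peaks on autosomes in that list, 3.43% were as long. In replicate 1 the longest gap of the clusters was 330 kb, from Pcdhb10 to Pcdhgb6, with 25 members inside it, and 5.89% of its gaps were as long. With the replicates combined, the peak at Pcdhb10 divides the stretch, and the longest gap was 250 kb, from Pcdhb10 to Pcdhga1, with 12 members and 6.75% of gaps as long.

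The density over the clusters as a whole was not low. The 912 kb from the first to the last protocadherin gene held 16 CTCF peaks of the combined replicates and 7 RAD21 peaks, where windows of this length had medians of 8 and 5, and 78.0% of the windows had as few CTCF peaks or fewer. Several of the 16 lie outside the promoters. The last of them fall in the shared 3′ UTR of the Pcdhg genes, from 37841056 to 37841184 and from 37841311 to 37841660 on chromosome 18. The second of these had CTCF folds of 8.64 and 6.67, at percentiles 84.1 and 36.0, the highest motif score of any CTCF site in the region, 22.2 bits on the minus strand, and no RAD21 peak in any list.

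The 300 kb after the clusters contained 13 CTCF sites, 11 of them in both replicates, 8 with RAD21 in the transgenic limbs and 7 with wild-type RAD21. Windows of 300 kb had a median of 2 CTCF peaks, and 2.65% of them had at least 13. For RAD21 of the transgenic limbs the median was 1, and 0.756% of windows had at least 8. Sites in both replicates and wild-type RAD21 were not counted in such windows. Both CTCF replicates gave their highest ranks in this stretch to the same 2 sites. The first, from 37852083 to 37852588, 10.4 kb after the last protocadherin exon in an intron of Diaph1, a formin gene read on the minus strand, stood at percentiles 99.1 and 99.3 for CTCF and had a RAD21 fold of 8.37 in replicate 2. The other, from 37935472 to 37935896, 200 bp before the start of Diaph1 and 93.8 kb from the clusters, had CTCF folds of 12.4 and 16.8 at percentiles 99.4 and 99.5 and no RAD21 peak in any of the 3 RAD21 lists.

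RAD21 was highest at other sites than CTCF in this stretch. In replicate 2 its highest percentiles were 95.9 at the site 66.4 kb after the clusters, in an intron of Diaph1, 95.7 at 183 kb and 90.7 at 172 kb. These 3 were also the sites of the stretch with RAD21 in replicate 1, where the one at 183 kb stood low, at percentile 23.3, and those at 66.4 kb and 172 kb at 71.4 and 74.4. In wild-type limbs the percentiles were 89.6 at 66.4 kb, 97.2 at 172 kb and 73.8 at 183 kb. CTCF at them ranked from percentile 55.3 to 95.9. The motif was on the plus strand at the first, with 11.5 bits, and below the lower score at the others. At 38.5 kb, also in an intron of Diaph1, RAD21 stood at percentile 75.4 in transgenic replicate 2 and at 82.9 in wild-type limbs, above the site at 183 kb there, while CTCF stood at percentiles 21.2 and 48.7 and no motif was found.

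Motif direction differed between the promoters and the flank. Of the 13 sites after the clusters, 7 had a motif at the lower score within 50 bp of a CTCF summit, of which 5 were on the minus strand, pointing back toward the protocadherin genes, and 2 on the plus strand, at 66.4 kb and 163 kb. The motifs at the first site between the arrays and at the site in the Pcdhg 3′ UTR were on the minus strand too, whereas all 3 at members were on the plus strand. The sites at 41.8 kb and 45.3 kb after the clusters had minus-strand motifs of 17.7 and 20.6 bits and CTCF in replicate 2 at percentiles 76.1 and 12.3, without RAD21. Contacts between these sites were not measured in the peak lists.

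**Figure D5:**
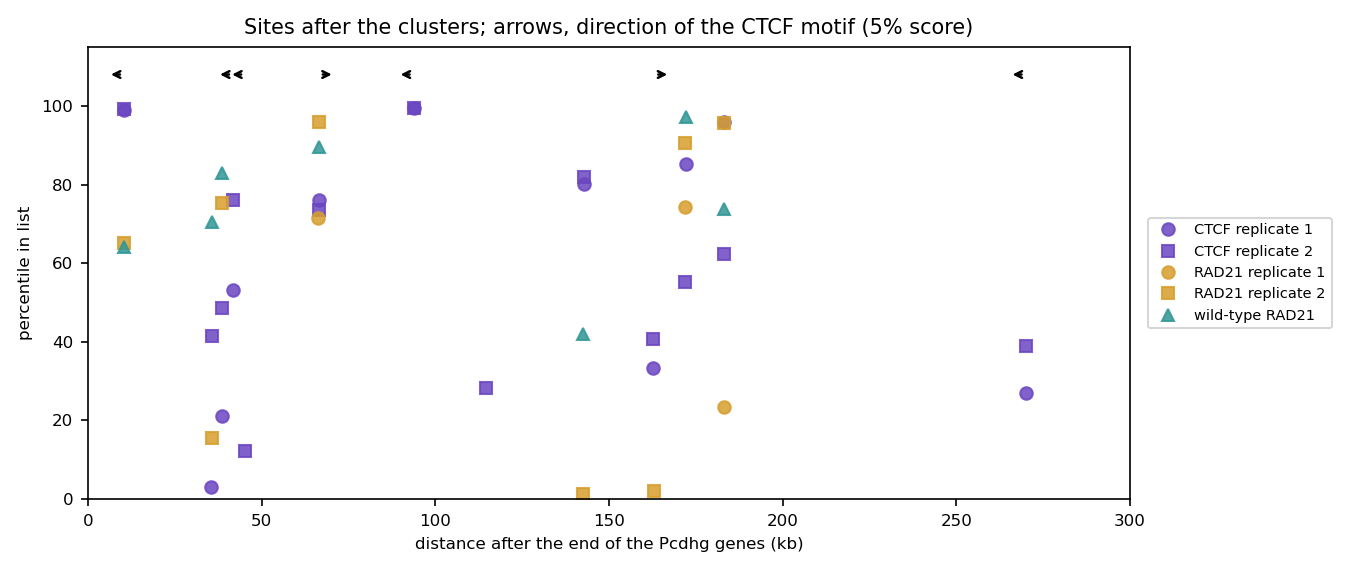
Percentile of each peak within its list against distance after the end of the Pcdhg genes in kb, for the 5 lists; arrows above give the direction of the CTCF motif at sites where it passes the lower score, leftward arrows pointing back to the clusters. The CTCF points at 10.4 kb and 93.8 kb reach percentiles above 99, and the RAD21 points above percentile 90 lie at 66.4 kb, 172 kb and 183 kb.

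Other gene groups gave a measure for these counts. Of the 13 protocadherins outside the clusters, Pcdh1, Pcdh7, Pcdh8 and Pcdh15 had a CTCF peak, the same 4 in both replicates. The Ugt1a genes, which also splice alternative first exons to shared exons, had CTCF at 0 of 9. The Hox genes had it at 8 of 39, again the same 8 in both replicates. There are 34 protein-coding genes within 500 kb of the clusters that are not members. CTCF was called at 5 of them in replicate 1 and 8 in replicate 2, including Diaph1, Pcdh1, Gnpda1 and Slc4a9. RAD21 in either replicate was called at 2 of them (5.88%), Gnpda1 and Pcdh1. It was called at 4 of the 13 protocadherins outside the clusters (30.8%), 7 of 39 Hox genes (17.9%) and 0 of 9 Ugt1a genes. The members' RAD21 share, 10.3%, lay above those of Ugt1a and neighbouring genes and below those of Hox genes and other protocadherins. CTCF shares in either replicate were 30.8% for other protocadherins, 20.5% for Hox genes and 23.5% for neighbouring genes, beside 11 of 58 members.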

How the data were processed

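CTCF and RAD21 were profiled by ChIPmentation in transgenic limbs and RAD21 by ChIP-seq in 1 wild-type library. Single-end reads had been aligned by the authors against mm10 and against a custom genome that includes the transgene, and MACS2 was run by them for every replicate separately. The submitters' processing notes name Bowtie2 2.3.4.1 and MACS2 2.1.1.20160309. The deposited lists give a fold enrichment, which is a ratio, significance as −log10 p-values and −log10 q-values, and a score derived from the q-value. For wild-type RAD21 the aligner is not given in the sources used here. Input libraries were not used. No reads were counted, so depth is unknown and no test between groups was made.

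From the lists, summits were assigned to the variable exon starts and gene starts of GENCODE M21 on GRCm38. The variable exon is the one with the start codon of the transcript with the longest coding sequence. One of the gene models named Pcdha11 was called Pcdha10, after its RefSeq start. Peaks of several lists were merged at 1 bp of overlap. The 19 bp motif model was learned from 2000 CTCF peaks of replicate 2, after leaving out the strongest 100, and its strand is that of the consensus given above. Windows tile the autosomes. All members, all peaks near them and all peaks in the 300 kb after the clusters were named by rule. Members, lists and rules were chosen with earlier results of these data known. The windows for motifs before and inside the exon and the gaps were chosen after the values were seen. Scripts were tested on simulated data. Python 3.11.15, numpy 2.4.6, pandas 2.3.3, pysam 0.24.0 and samtools 1.23.1 were used.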

Additional observations from a re-analysis of the deposited data

How the results depend on the processing

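The counts depended on the threshold and the replicate more than on distance. Of 11 members with CTCF, 4 remained at a −log10 q of at least 5, 1 at 10 and 3 when both replicates were required. For RAD21 the 6 members became 2 at a −log10 q of at least 10 and 1 with both replicates required. For both proteins together the 5 became 8 at 5 kb, 2 at a −log10 q of 5, and 1 at 10 or with both replicates. With both replicates required, CTCF was at 5.17% of members beside 13.2% of protein-coding genes, and RAD21 at 1.72% beside 1.46%. The shares of protein-coding genes at these q limits were not counted, so the drops cannot be set against genes in general. Leaving out a replicate gave 5 to 9 members with CTCF, 1 to 6 with RAD21 and 1 to 5 with both, the lower value each time without replicate 2. It gave 1 to 2 plus-strand motifs, median CTCF percentiles of 10.8 to 19.1, 11 to 13 CTCF and 3 to 8 RAD21 sites after the clusters, and 62.9% to 73.4% of windows with as few CTCF peaks. The strongest wild-type RAD21 peaks, cut to the number of RAD21 replicate 2, gave 5 members in place of 8, and 150 kb after the clusters held 5 RAD21 sites. Per cluster, which was added after seeing the data, without replicate 2 the Pcdha count fell from 5 to 1 and the Pcdhg count from 5 to 3, and the Pcdha genes with both a motif and a peak from 5 to 1. No motif at a member's summit was on the minus strand under any alternative. No paired analysis was possible because no result comes from a test: the lists hold no counts, and the replicate numbers that the CTCF and RAD21 lists share join different antibodies, not groups compared. With 2 libraries per antibody and no depth, a peak of 1 replicate cannot be told apart from one near the threshold in both.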
